A study of Nomascus leucogenys with 4 samples.

Results

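The regions described are PU.1 peaks that were called in only 1 of 2 gibbons and that lie close to a peak called in both. They were chosen by position: on the placed autosomes, a peak was unshared when it overlapped no peak of the other individual by even 1 bp, and it was a flanking peak when its summit lay within 10 kb of the summit of a shared peak of the same list. The rule gave 702 flanking peaks in Ricky, out of 6068 unshared and 11362 autosomal peaks (12399 peaks in the whole list). It gave 105 flanking peaks in Vok, out of 1089 unshared and 6392 autosomal peaks (7133 in the whole list). Ricky and Vok are the names in the sample titles of 2 northern white-cheeked gibbons, Nomascus leucogenys, treated by the design text as biological replicates. Each gave 1 PU.1 chromatin immunoprecipitation (ChIP) library and 1 input library from a lymphoblastoid line, B lymphocytes immortalised with Epstein-Barr virus. After duplicate removal the ChIP libraries held 39743757 fragments in Ricky and 42905332 in Vok, and the input libraries held 31218578 and 40288483. One line stands for each individual, so an individual and its cell line cannot be told apart. The labels give no treatment, age or genotype beyond this.

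PU.1 is the product of the SPI1 gene and belongs to the ETS family; B cells and myeloid cells need it, and it binds purine-rich DNA around a GGAA core. It opens chromatin together with partner factors, and in B cells it binds with IRF4 or IRF8 at composite sites. Regulatory regions can hold several such sites side by side. A peak list holds only what passed the caller's threshold, so a peak missing from it is not shown to be an unbound site.

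Flanking peaks were more numerous than an even spread of unshared peaks over the chromosomes would give. In Ricky 11.6% of unshared peaks (exact Clopper-Pearson 95% interval 10.8% to 12.4%) flanked a shared site, and in Vok 9.64% did (7.95% to 11.6%). The intervals cover counting error only, and peaks of 1 library are not replicates. The sequence within 10 kb of a shared summit was 3.66% of the autosomal length in either list. Uniform placement on the same chromosome, computed from each chromosome's own share with no random draws, gave 227 flanking peaks in Ricky and 40.5 in Vok. The observed number was thus 3.10 times the uniform number in Ricky and 2.59 times in Vok, a mean of 2.84 ± 0.356 (SD, n = 2). Positions chose these peaks, so the ratio is a description, and no test is given with 2 individuals.

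The excess belonged to a gradient that reached far beyond 10 kb. In Ricky unshared peaks lay at 6.68 per Mb within 1 kb of a shared summit, 11.7 per Mb between 1 and 2 kb, 8.09 per Mb between 2 and 5 kb and 5.86 per Mb between 5 and 10 kb. Beyond 10 kb the Ricky density was 5.0 per Mb up to 20 kb, 3.88 up to 50 kb, 3.02 up to 100 kb, 2.53 up to 200 kb and 1.39 per Mb farther out. The dip within 1 kb covers sequence that the shared peak itself occupies, and the closest flanking summit lay 360 bp away in Ricky and 544 bp in Vok. The 4 bins within 10 kb held 70 to 274 peaks each in Ricky. In Vok, where the same 4 bins held 9 to 46 peaks, the density lay between 0.858 and 1.29 per Mb and their intervals overlapped. It was 0.650 per Mb between 10 and 20 kb and 0.298 per Mb beyond 200 kb, against 0.411 per Mb over all autosomal sequence. When uniform placement was restricted to sequence within 100 kb of a shared summit, the ratio was 1.75 in Ricky and 1.66 in Vok. Restricted to 20 kb, an alternative chosen after the densities were seen, it was 1.17 in Ricky and 1.23 in Vok. Each chromosome was taken to end at the last peak of either list, and assembly gaps and unmappable sequence were counted as available, so the ratio over whole chromosomes includes any unequal spread of callable sequence. How much of it that accounts for was not tested.

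**Figure D1:**
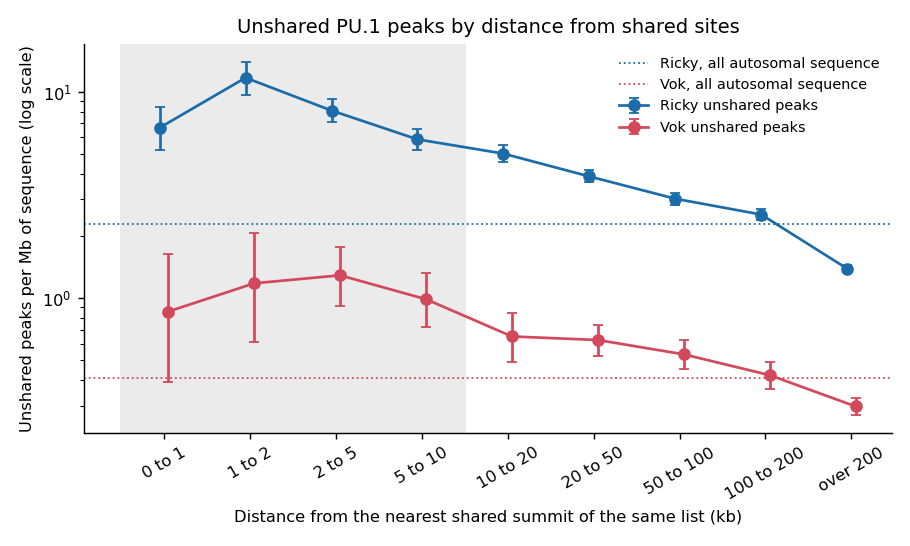
Density of unshared peaks (peaks per Mb, log scale) by distance in kb from the nearest shared summit of the same list, with exact Poisson 95% intervals, Ricky in blue and Vok in red. The shaded bins hold the flanking peaks, and dotted lines mark the mean over all autosomal sequence, 2.29 per Mb in Ricky and 0.411 per Mb in Vok; beyond 10 kb the density falls from bin to bin in both lists and passes below that mean only beyond 200 kb.

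The excess was spread over the karyotype, more clearly in Ricky than in Vok. In Ricky all 25 autosomes held more flanking peaks than uniform placement gave. The ratio ran there from 1.30 on chromosome 15 (12 peaks against 9.24) to 5.11 on chromosome 7b (45 against 8.81). In Vok 22 of 25 autosomes lay above the uniform number, which was at most 2.62 per autosome, so 1 peak could decide the side. Chromosome 6, with 2 flanking peaks against 1.98, and chromosome 16, with 1 against 0.980, lay barely above it. Chromosome 23 held 1 flanking peak against 1.32, and chromosomes 21 and 25 held none, against 0.730 and 0.377. Chromosome 5 had the highest ratio in Vok, 6.35 (12 peaks against 1.89), and 8 of those 12 lay over high background, defined below.

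**Figure D2:**
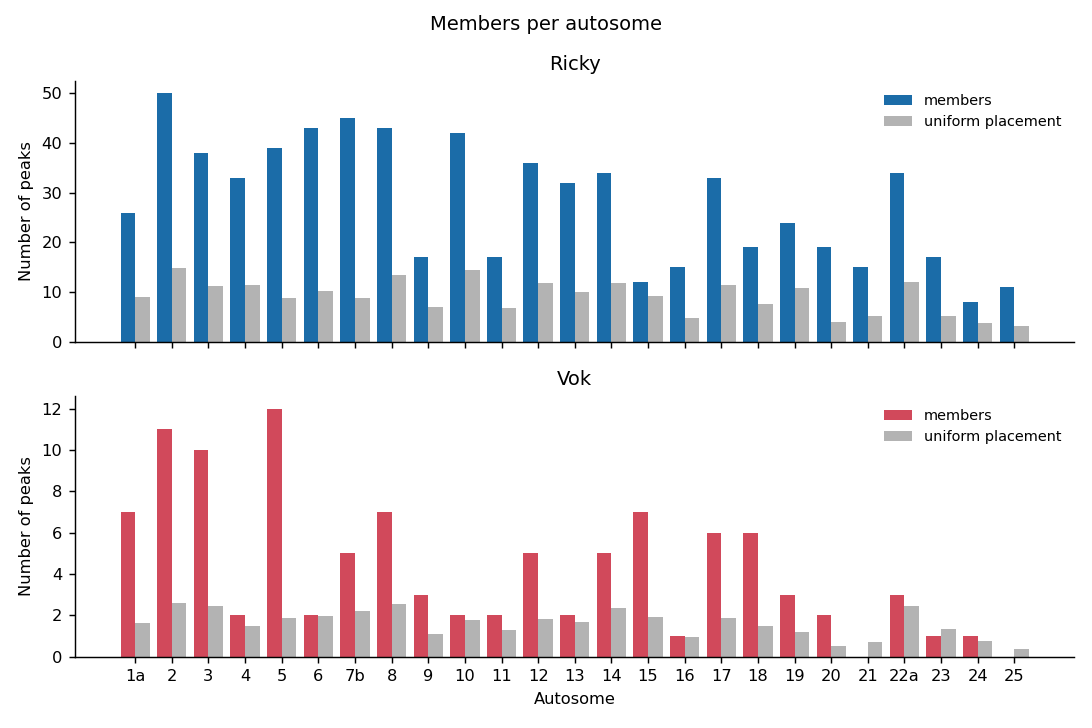
Number of flanking peaks on each autosome (colour) beside the number that uniform placement on that chromosome gives (grey), for Ricky above and Vok below. In Ricky the coloured bar is the taller one on all 25 autosomes, and in Vok on 22 of them.

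Flanking peaks were weak, and only slightly stronger than unshared peaks far from any shared site. The pileup, the number of ChIP fragments covering the summit, was not used to choose the peaks. Like every peak value here it is the authors' own, from their peak caller. In Ricky its median was 22 fragments (quartiles 18 and 27) at the 702 flanking peaks and 20 fragments (17 and 26) at the 3186 unshared peaks more than 100 kb from any shared summit. In Vok it was 20 fragments (18 and 25) at the 105 flanking peaks and 19 fragments (16 and 23) at the 633 far ones. The ratio of medians, flanking over far, averaged 1.08 ± 0.0335 (SD, n = 2). Both individuals gave a ratio above 1, with medians 1 or 2 fragments apart, and 2 individuals allow no test. The direction was lost once peaks with a −log10 q under 5 were removed from both lists, since the ratio was then 1.04 in Ricky and 0.957 in Vok. At equal list lengths the medians were the same in both individuals, a ratio of 1. Shared peaks had medians of 50 fragments in Ricky and 34 in Vok, so flanking peaks lay well below them. Unshared peaks between 10 and 20 kb from a shared summit had medians of 23 fragments in Ricky and 20 in Vok. These were no lower than at flanking peaks, so the slight difference from far peaks was not particular to the 10 kb flank.

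Flanking peaks were also slightly wider than far ones on median. Flanking peaks had a median width of 258.5 bp in Ricky (quartiles 213 and 319 bp), against 241.5 bp (206 and 299 bp) at far peaks. In Vok the median was 235 bp (199 and 282 bp) at flanking peaks and 230 bp (202 and 279 bp) at far peaks. The mean ratio was 1.05 ± 0.0344 (SD, n = 2). Without high background, defined below, the medians were 259 bp at flanking and 241 bp at far peaks in Ricky, and 225 bp at both in Vok. When such peaks were removed before flanking peaks were chosen, the ratio was 1.07 in Ricky and 1.02 in Vok. Shared peaks were wider, with medians of 421 bp in Ricky and 326 bp in Vok. Unshared peaks between 10 and 20 kb from a shared summit had median widths of 260 bp in Ricky and 238 bp in Vok, no narrower than flanking peaks.

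**Figure D3:**
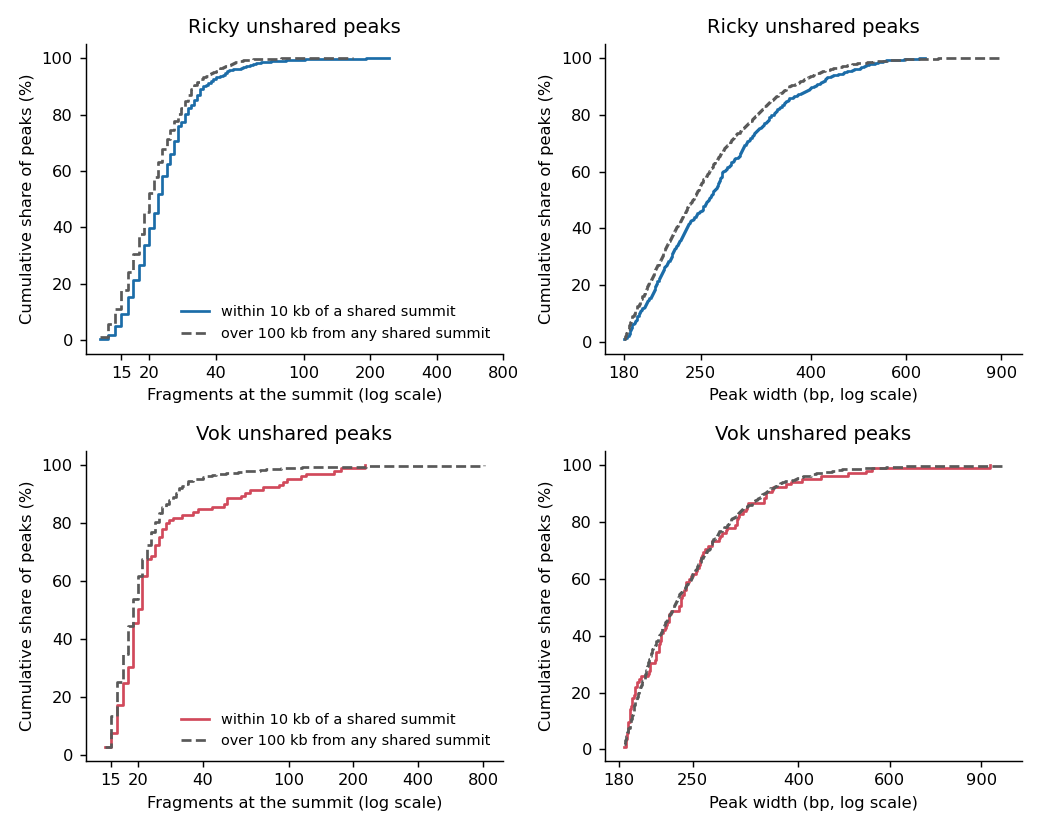
Cumulative share (%) of unshared peaks by fragments at the summit (left) and by width in bp (right), both on log scales, for Ricky (top) and Vok (bottom). Solid coloured lines are flanking peaks and dashed grey lines are peaks more than 100 kb from any shared summit; the Ricky lines run side by side with medians of 22 and 20 fragments, and in Vok 15.2% of flanking and 4.58% of far peaks reach 40 fragments, although the highest far peak, with 811, exceeds the highest flanking peak, with 227.

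Fold enrichment, the pileup over the local background, differed more between flanking and far peaks in Ricky than in Vok. In Ricky its median was 5.04 (quartiles 4.03 and 6.19) at flanking peaks and 4.62 (3.74 and 5.77) at far peaks, and in Vok 3.67 (3.04 and 4.31) and 3.61 (3.21 and 4.11). Unshared peaks between 10 and 100 kb from a shared summit had medians of 4.85 in Ricky and 3.80 in Vok, in Vok above flanking peaks. A fold enrichment of at least 10 was reached by 27 of 702 flanking peaks in Ricky (3.85%, interval 2.55% to 5.55%) and by 84 of 3186 far peaks (2.64%, 2.11% to 3.25%), where 2.88% of all unshared peaks reached it. In Vok 1 of 105 flanking peaks and 5 of 633 far peaks did, where the share over all unshared peaks was 1.01%. Without high background, the median fold enrichment was 5.08 at flanking and 4.62 at far peaks in Ricky, and 3.92 and 3.69 in Vok. The median −log10 q was 7.73 at flanking and 6.16 at far peaks in Ricky, and 4.88 at flanking and 3.55 at far peaks in Vok. A −log10 q of at least 10 was reached by 36.2% of flanking peaks in Ricky (interval 32.6% to 39.9%) and 27.6% of far peaks (26.0% to 29.2%), where 30.2% of all unshared peaks reached it. In Vok the shares were 5.71% of flanking peaks (2.13% to 12.0%) and 6.16% of far peaks (4.42% to 8.33%), where 6.70% of all unshared peaks reached it, so the higher median of flanking peaks in Vok was not matched at this limit.

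Within 10 kb, distance made little difference to strength. In Ricky the median pileup was 21 fragments within 1 kb, 22 between 1 and 2 kb, 23 between 2 and 5 kb and 23 between 5 and 10 kb, and in Vok it lay between 19.5 and 21 fragments in these bins. The median distance to the nearest shared summit was 3988 bp in Ricky and 4115 bp in Vok. Flanking peaks lay on both sides of it: 48.1% of Ricky (interval 44.4% to 51.9%) and 41.0% of Vok flanking peaks (31.5% to 51.0%) were at the higher coordinate. The closest one, in Ricky on chromosome 2 at 66267422 to 66267611, had 13 fragments beside a shared peak with 21. Peaks just inside the limit, 9939 and 9943 bp from the shared summit in Ricky, had 27 and 20 fragments, and those just outside, at 10019 and 10038 bp, had 23 and 29. In Vok the peaks at 9807 and 9858 bp had 25 and 19 fragments, and those at 10021 and 10250 bp had 16 and 35. The values inside and outside the limit overlapped.

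The shared peaks being flanked were next examined, since their strength played no part in the choice. At least 1 flanking peak stood beside 730 of 5294 shared peaks in Ricky (13.8%) and beside 109 of 5303 in Vok (2.06%). Most had 1, while 74, 10 and 3 shared peaks in Ricky had 2, 3 and 4, and 5, 3 and 2 in Vok. In Ricky the flanked shared peaks were the stronger on median, with a median fold enrichment of 11.5 (quartiles 6.93 and 21.5) against 10.4 (6.69 and 18.3) at unflanked ones. In Vok they were the weaker on median, with 5.69 (4.02 and 8.63) against 6.57 (4.92 and 10.9). The ratio of flanked to unflanked medians was 1.11 in Ricky and 0.866 in Vok, and without peaks over high background 1.15 and 0.975. At equal list lengths it was 0.999 in Ricky and 0.886 in Vok, so the higher median of flanked sites in Ricky was not seen there.

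By quartile of fold enrichment, from the weakest to the strongest shared peaks, the flanked share in Ricky was 13.1%, 11.3%, 14.3% and 16.4%, where 13.8% of all shared peaks were flanked. The interval was 9.68% to 13.2% for the second quartile, which had the lowest share in Ricky. It was 14.4% to 18.5% for the strongest, which had the highest. These intervals cover counting error only, since peaks of the same library are not replicates. That the lowest and the highest did not overlap is thus no test, and the difference between quartiles was not tested. In Vok the shares were 3.11%, 1.62%, 1.83% and 1.53% around the overall 2.06%, so the weakest quartile had the highest share there. Its interval began at 2.28%, and those of the others ended at 2.49%, 2.71% and 2.35%, so they overlapped. The quartiles include peaks over high background and were not recomputed without them. In Vok 89 of the 109 flanked and 5097 of the 5194 unflanked shared peaks were without high background. Counted per Mb within 10 kb of the shared peaks of each quartile, Ricky had 6.72, 5.75, 7.59 and 8.91 flanking peaks, and Vok had 1.72, 0.836, 0.911 and 0.794.

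Flanked shared peaks also tended to have other shared peaks beside them. Another shared summit lay within 10 kb of 26.6% of the flanked shared peaks in Ricky (interval 23.4% to 29.9%) and of 14.5% of the unflanked ones (13.5% to 15.6%). In Vok the shares were 21.1% (13.9% to 30.0%) and 16.2% (15.3% to 17.3%), with overlapping intervals. Of the flanking peaks themselves, 98 in Ricky and 16 in Vok had 2 or more shared summits within 10 kb. Each such peak marked all those shared peaks as flanked, so the difference between flanked and unflanked sites is partly set by the counting. How much of it that accounts for was not tested. Flanking peaks also had company of their own kind. Another unshared peak of the same list lay within 10 kb of 23.4% of them in Ricky (20.3% to 26.7%), against 7.22% of far peaks (6.34% to 8.17%). In Vok the shares were 17.1% (10.5% to 25.7%) and 8.21% (6.20% to 10.6%). Flanking peaks were chosen where unshared peaks lay densest and far peaks where they lay sparsest. Such a difference thus follows in part from the choice, and the share that density alone would give was not computed.

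A flanking peak usually held fewer fragments than the shared peak beside it. The median ratio of its pileup to that of the nearest shared peak was 0.400 in Ricky (quartiles 0.214 and 0.680) and 0.633 in Vok (0.392 and 0.832). The flanking peak was the higher of the pair in 71 of 702 cases in Ricky (10.1%, interval 7.98% to 12.6%) and in 14 of 105 in Vok (13.3%, 7.49% to 21.4%).

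**Figure D4:**
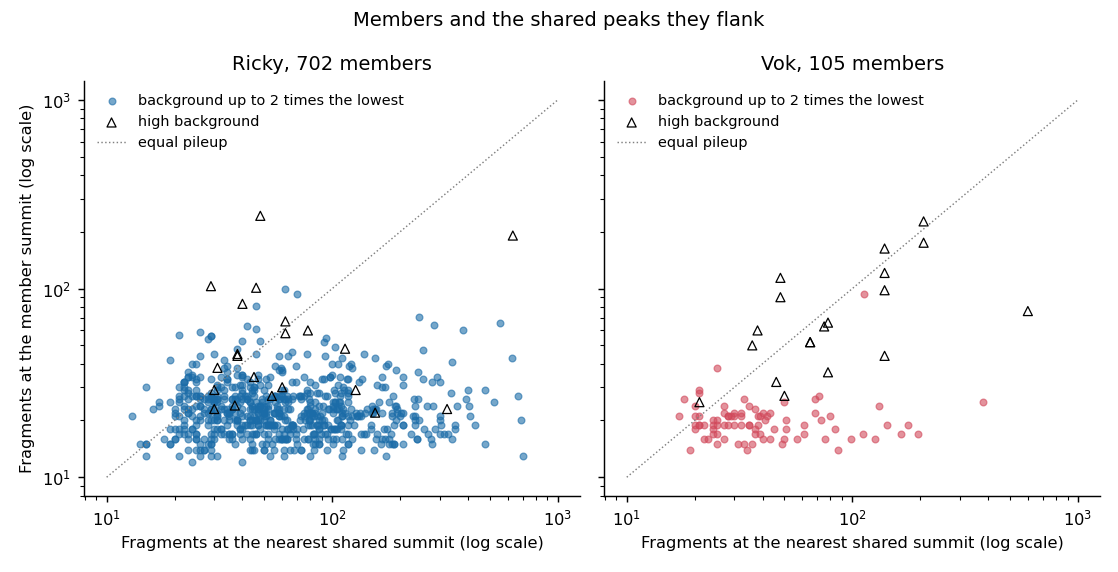
Fragments at each flanking summit against fragments at the nearest shared summit of the same list, both on log scales, for the 702 flanking peaks of Ricky and the 105 of Vok. Open triangles are flanking peaks over high background and the dotted line marks equal pileup; 71 points in Ricky and 14 in Vok lie above it.

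By fold enrichment, the leading flanking peak was a Ricky peak on chromosome 5 at 56605363 to 56605908, whose summit had 100 fragments (95% interval 81.4 to 122, exact Poisson) at a fold enrichment of 23.3. Coordinates follow the authors' files and count from 1. It stood 2921 bp from a shared peak that held fewer fragments, 62 in Ricky and 51 in Vok, while no Vok peak lay nearer than 2515 bp to its edge. The next, on chromosome 7b at 6608632 to 6609131, had 94 fragments (76.0 to 115; fold enrichment 21.9), 1628 bp from a shared peak with 70 fragments in Ricky and 34 in Vok. On chromosome 3 at 23600706 to 23601211 a flanking peak with 81 fragments (64.3 to 101; fold enrichment 18.9) had 3 shared summits within 10 kb, the nearest with 46 fragments in Ricky and 40 in Vok and the highest with 429 and 255. These 3 peaks thus stood above the shared peak nearest to them in the same library and had no counterpart in the other list.

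The other 2 of the 5 strongest in Ricky stood beside much higher shared peaks. The one on chromosome 19 at 52456619 to 52457179 had 66 fragments (fold enrichment 15.5), 8168 bp from a shared summit with 553 fragments in Ricky and 224 in Vok. The one on chromosome 11 at 112703250 to 112703636 had 64 fragments (fold enrichment 15.0), 1009 bp from a shared summit with 283 and 129 fragments in Ricky and Vok.

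In Vok a single flanking peak was strong. It lay on chromosome 3 at 37732342 to 37732783, with 94 fragments (interval 76.0 to 115) and a fold enrichment of 19.5, 9148 bp from a shared peak with 163 fragments in Ricky and 113 in Vok. The second, on chromosome 18 at 60340637 to 60341023, had 38 fragments (26.9 to 52.2; fold enrichment 8.00) and exceeded the shared peak 2289 bp away, which had 22 in Ricky and 25 in Vok. The next 3, on chromosomes 18, 15 and 2, had 27, 26 and 25 fragments and fold enrichments of 5.74, 5.54 and 5.33.

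Some of the highest shared peaks had faint companions. By fold enrichment the strongest flanked shared peak of Ricky (162), on chromosome 4 at 63286645 to 63287530, held 701 fragments in Ricky and 469 in Vok, and its flanking peak in Ricky, 1680 bp away, held 13. The next (148), on chromosome 5 at 73890739 to 73891667, with 708 fragments in Ricky and 546 in Vok, had a flanking peak of 14 fragments 8792 bp away. On chromosome 8 at 103324732 to 103325494 a shared peak with 629 and 310 fragments had one of 43 fragments, 5448 bp away. On chromosome 22a at 12184906 to 12185860 a shared peak with 685 and 424 fragments had 2, of 20 and 34 fragments. In Vok the strongest flanked shared peak by fold enrichment (78.2), on chromosome 2 at 101188459 to 101189145, held 723 fragments in Ricky and 380 in Vok, with a flanking peak of 25 fragments in Vok 9807 bp away. The next 4 in Vok, on chromosomes 3, 19, 17 and 13, held 143 to 196 fragments in Vok and had 1 flanking peak each, of 17 to 19 fragments.

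The 3 shared sites with the most flanking peaks in each list differed in background, with ties broken by the summed pileup of the flanking peaks. In Ricky a modest shared peak on chromosome 6 at 104053757 to 104053965, with 24 fragments in Ricky and 22 in Vok, had 4 flanking peaks of 21 to 40 fragments within 6973 bp. Of these 4, 3 exceeded the shared peak, and all had fold enrichments between 5.08 and 9.47. On chromosome 22a, shared peaks at 124247935 to 124248267 and 124250530 to 124251046 had the same 4 flanking peaks, of 19 to 29 fragments. In Vok the leading sites, on chromosome 5 at 142564734 to 142564990 and 142565473 to 142565685, had 4 flanking peaks of 44 to 163 fragments with fold enrichments of only 1.56 to 3.40. The background under those 4 peaks was 12.2 to 104 fragments, against a common lowest level of 3.87 in Vok. The shared peaks there had low fold enrichments in Ricky too, 1.60 and 1.43. The third site in Vok, on chromosome 15 at 110251550 to 110251813, had 3 flanking peaks of 36, 66 and 63 fragments with fold enrichments of 1.88 to 2.49, also over raised background.

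**Figure D5:**
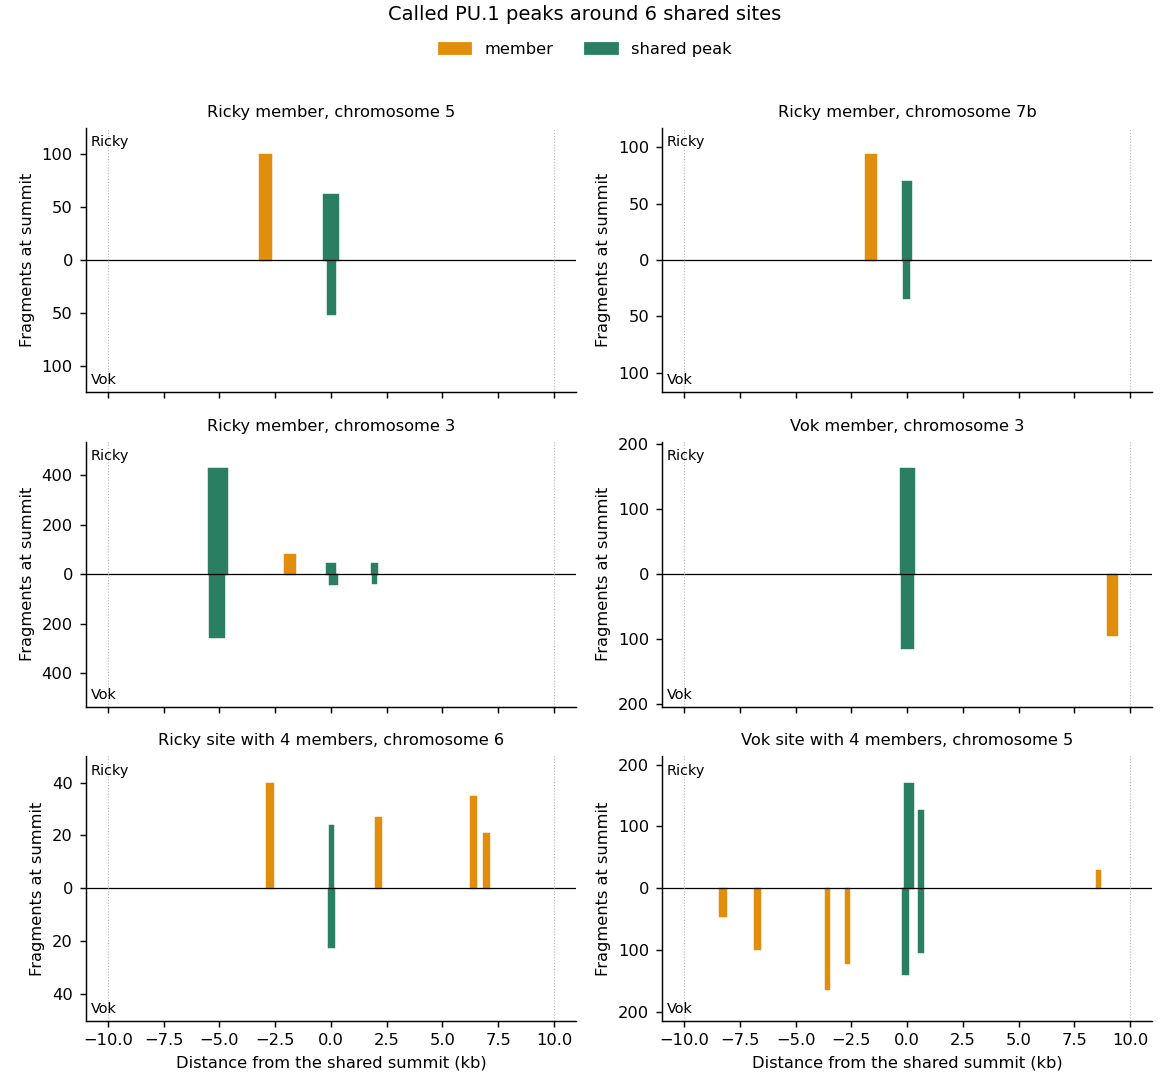
Called peaks within 11 kb of 6 shared summits, drawn to scale along the horizontal axis (kb from the shared summit), with bar height giving fragments at the summit, Ricky upwards and Vok downwards. Orange bars (labelled member) are flanking peaks and green bars shared peaks; 4 panels show flanking peaks of 81 to 100 fragments with no bar opposite, and 2 show sites with 4 flanking peaks, in Ricky on chromosome 6 and in Vok on chromosome 5.

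Background moved with part of these results. The background at each summit follows from the deposited pileup and fold enrichment, and it is called high here when it exceeded 2 times the common lowest level, 3.33 fragments in Ricky and 3.87 in Vok. High background lay under 21 of 702 flanking peaks in Ricky (2.99%, interval 1.86% to 4.54%) and under 50 of 3186 far peaks (1.57%, 1.17% to 2.06%), where 1.90% of all unshared peaks had it. In Vok it lay under 19 of 105 flanking peaks (18.1%, 11.3% to 26.8%) and 74 of 633 far peaks (11.7%, 9.29% to 14.5%), where 11.2% of all unshared peaks had it. At least 40 fragments were reached by 53 flanking peaks in Ricky (7.55%) and 158 far peaks (4.96%), where 5.69% of all unshared peaks reached them. In Vok they were reached by 16 flanking peaks (15.2%) and 29 far peaks (4.58%), where the share of all unshared peaks was 5.42%. Of these, 11 of 53 flanking and 14 of 158 far peaks in Ricky, and 15 of 16 flanking and 20 of 29 far peaks in Vok, had high background. In Vok the flanking peak without it was the one on chromosome 3 at 37732342.

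Peaks over high background stood together. The shared peak beside them had high background too in 18 of 21 cases in Ricky and 17 of 19 in Vok, against 13 of 681 and 4 of 86 for the other flanking peaks. The rule puts both peaks within 10 kb of each other, and how far that alone makes their local backgrounds alike was not tested. In Vok 8 of the 19 lay on chromosome 5, 3 on chromosome 15 and 3 on chromosome 2. The highest was on chromosome 2 at 79172108 to 79172606 in Vok, where 227 fragments stood over a background of 156. Without peaks over high background the number over uniform placement was 3.09 in Ricky and 2.32 in Vok, and the ratio of median pileups, flanking over far, was 1.10 in Ricky and 1 in Vok. These values come from removing such peaks, shared ones too, before flanking peaks were chosen. With the choice left as it was, the peaks without high background had medians of 22 fragments at flanking and 20 at far peaks in Ricky, and of 19 and 18 fragments in Vok.

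Few flanking peaks narrowly missed a peak of the other list. The median gap between a flanking peak and the nearest peak of the other individual was 3552.5 bp in Ricky and 3326 bp in Vok. The rule limits this gap, since the shared peak nearby overlaps a peak of the other list. The median gap to the edge of that shared peak was 3598 bp in Ricky and 3925 bp in Vok. The gap to the nearest peak of the other list was under 200 bp for 5 flanking peaks in Ricky (0.712%) and 3 in Vok (2.86%). The smallest, 12 bp, separated a Ricky peak on chromosome 2 at 79134412 to 79134633 from a Vok peak at 79134054 to 79134399, and these had 29 and 25 fragments over backgrounds of 9.28 and 9.58. An unshared peak of the other list lay within 1 kb of 7 flanking peaks in Ricky (0.997%, interval 0.402% to 2.04%) and 7 in Vok (6.67%, 2.72% to 13.3%). At 200 bp and 1 kb the shares of far and of all unshared peaks were not computed. Within 10 kb an unshared peak of the other list lay near 2.99% of flanking and 1.66% of far peaks in Ricky. In Vok one lay near 21.0% of flanking (interval 13.6% to 30.0%) and 8.06% of far peaks (6.06% to 10.5%). Unshared peaks of either list lay denser near shared sites, so these differences too follow in part from the choice.

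The level of each flanking peak that would go with its neighbour in the other individual was computed from the shared peak beside it. Each pileup was multiplied by the ratio of that shared peak's pileup in the other individual to its pileup in the same individual. For Ricky flanking peaks the median scaled value was 14.8 fragments (quartiles 11.3 and 20.6), and 318 of 702 (45.3%) fell below 14 fragments, the lowest pileup of any autosomal Vok peak. The median of unshared Vok peaks, 19 fragments, was reached by 212 Ricky peaks (30.2%, interval 26.8% to 33.7%), and 39 (5.56%, 3.98% to 7.52%) reached the median of shared Vok peaks, 34. For Vok flanking peaks the median scaled value was 29.2 fragments (23.6 and 38.1), all 105 lay at or above 12, the lowest autosomal Ricky pileup, and 88 (83.8%, 75.3% to 90.3%) reached the Ricky unshared median of 21. The scaling takes a flanking site to change with its neighbour, which was not tested. The median Ricky over Vok pileup ratio was 1.50 at shared peaks flanked in Ricky and 1.38 at those flanked in Vok. Scaling thus lowered most Ricky values and raised most Vok values, and the shares in the 2 directions largely restate that ratio. Vok flanking peaks began at 14 fragments, already above 12. The lowest pileup of a list is not the caller's limit, which was a q threshold.

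The shared peaks beside flanking peaks were compared between the individuals. Their pileup ratio, Ricky over Vok, had a median of 1.50 (quartiles 1.22 and 1.81) at the 702 shared sites flanked in Ricky alone and 1.40 (1.12 and 1.68) at the 81 flanked in Vok alone. At the 4483 sites flanked in neither it was also 1.40 (1.12 and 1.71), so sites flanked in Vok alone had the same median as unflanked ones, and sites flanked in Ricky alone had a higher one. Without high background the medians were 1.52 at sites flanked in Ricky alone, 1.43 at those flanked in Vok alone and 1.40 at those flanked in neither. These differences between sites of the same libraries were not tested. Ricky was the higher at 624 of the 702 (88.9%), 67 of the 81 (82.7%) and 3720 of the 4483 (83.0%). Pileups were not normalised between the individuals.

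Sites flanked in both individuals numbered 28, and 13 of them had high background in Ricky. They were 3.84% of the flanked shared peaks of Ricky (interval 2.56% to 5.50%), where 2.06% of all shared peaks were flanked in Vok. They were 25.7% of the flanked shared peaks of Vok (17.8% to 34.9%), where 13.8% of all shared peaks were flanked in Ricky. Ranked by the geometric mean of the fold enrichments in both lists, the first, on chromosome 12 at 21046009 to 21046611 in Ricky, held 155 fragments in Ricky and 131 in Vok. Its flanking peaks had 23 and 22 fragments in Ricky, 7910 and 2757 bp away, and 24 fragments in Vok, 3353 bp away, all at lower coordinates. The second, on chromosome 12 at 9316909 to 9317453, held 179 and 108 fragments, with flanking peaks on both sides in Ricky (16 and 25 fragments) and on one side in Vok (17 fragments). On chromosome 18 at 29398527 to 29399095 a shared peak with 134 and 71 fragments had 3 flanking peaks in Ricky, of 17, 21 and 14 fragments, and 1 in Vok, of 27 fragments. That Vok peak, at 29389680 to 29389961, lay 283 bp from the nearest Ricky peak. Sites on chromosomes 1a and 17 had 1 flanking peak in each individual, of 23 and 19 fragments in Ricky and 22 and 19 in Vok, on opposite sides of the shared summit.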

How the data were processed

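The authors called peaks in each individual separately, per the file headers, using MACS 2.1.1.20160309 on paired fragments with that individual's input as control, a q threshold of 0.05, 1 fragment kept per position and an effective genome of 2.7 Gb. The alignments were trimmed and filtered at a mapping quality of 30, per the file headers, and the same headers name bwa, whereas the submitters' processing notes list Bowtie2. The deposited files give a pileup (signal, whole numbers in 100% of peaks), a fold enrichment ratio, and −log10 p and q values per peak. The headers mention scaling of the larger library, which whole pileups do not show. The build of the coordinates is not stated by labels or headers, and no genome or annotation was used, so motifs and genes were not described. The authors' repeat family table was not used here.

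Background was computed as (pileup + 1)/fold enrichment − 1. Groups came from the sample titles; replicate 1 is Ricky and replicate 2 is Vok. The regions named were the 5 flanking peaks with the highest fold enrichment per individual, the 3 sites with the most flanking peaks, the 5 strongest flanked shared sites, the 5 strongest flanked in both, and peaks at the 10 kb limit; peaks with the smallest gap to the other list, the nearest to a shared summit and the highest background were added after their values were seen. The rule and lists were chosen with earlier results of these data known. Uniform numbers are unshared peaks per chromosome times the share of the chromosome within 10 kb of a shared summit. Code was tested on simulated data. Alternatives were other overlap rules, distances, q limits, list lengths and the removal of high background. Tables and intervals were made in pandas 2.3.3 and SciPy 1.17.1, and plots in matplotlib 3.10.9.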

Additional observations from a re-analysis of the deposited data

Results flagged for a closer look

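The strength of flanked shared peaks differed in direction between the individuals in the lists as deposited. The median fold enrichment of flanked over unflanked shared peaks was 1.11 in Ricky and 0.866 in Vok. With 1 library per individual the difference was not tested. In Vok 109 shared peaks were flanked, and without peaks over high background the ratio was 1.15 in Ricky and 0.975 in Vok. At equal list lengths the ratio was 0.999 in Ricky and 0.886 in Vok, so the directions were then not opposite.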

How the results depend on the processing

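Values are means of both individuals. Of 42 alternatives over 5 results that used both individuals, 27 kept the direction and stayed within 1 SD. With 2 individuals, a value from 1 of them always lies within 1 SD of the mean. The count includes the ratio for flanked shared peaks, where the individuals lay on opposite sides of 1. That mean had no clear direction to keep, and its SD of 0.173 was wide. The share of unshared peaks that flank a shared site was 10.6%, 6.24% at 5 kb and 16.7% at 20 kb, and 9.64% and 11.6% in each individual alone. The number over uniform placement, 2.84, was 3.23 at a reciprocal overlap of 50%, 3.32 at a −log10 q of at least 5, 3.23 at 5 kb, 2.38 at 20 kb, 3.26 at equal list lengths, 1.70 with placement within 100 kb and 1.2 within 20 kb (2.59 to 3.10 alone); it stayed above 1 throughout. The pileup ratio, 1.08, was 1.13 at a reciprocal overlap of 50%, 1 at equal list lengths and 0.999 at a −log10 q of at least 5 (1.05 to 1.10 alone). The width ratio lay between 1.02 and 1.07 in each alternative. The ratio for flanked shared peaks, 0.989, ended above 1 at a reciprocal overlap of 50% (1.03), at 20 kb (1.03) and without high background (1.06), and was 0.866 and 1.11 alone; at equal list lengths it was 0.999 in Ricky and 0.886 in Vok; the cause was not tested. Removing high background from the share, the number and the shared peak ratio, and placement within 20 kb, were chosen after seeing the data. Chromosome lengths from a genome were not run. No paired analysis was possible because peaks were called in 1 ChIP library per individual and no result comes from a test.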
